A study of Mus musculus with 4 samples.

Results

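The 8 genes described here encode the nuclear lamins and the enzymes that mature their carboxyl ends. They are the lamin genes Lmna, Lmnb1 and Lmnb2, the farnesyltransferase subunit genes Fnta and Fntb, the prenyl protease genes Rce1 and Zmpste24, and the methyltransferase gene Icmt. They were picked by gene symbol from a count matrix of 24421 symbols, and each symbol was found there. The counts came from 4 bulk MARS-seq libraries. All were made from B16F10, a mouse melanoma line of C57BL/6 origin that was grown in DMEM with fetal bovine serum, transduced with lentivirus and kept under puromycin selection. In 2 libraries (shControl 1 and 2) the cells carried the vector the study lists as empty, and in the other 2 (shLmna 1 and 2) they carried 1 hairpin directed at exon 8 of Lmna. The control cells thus shared the virus and the drug but carried no hairpin, and each group is a stably selected pool made with a single vector. Whether libraries of the same group came from separate cultures is not stated, so the p-values below measure the spread between libraries, which may be technical. MARS-seq primes at the poly(A) tail and counts the 3′ ends of transcripts.

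Lamins are intermediate filament proteins that line the inner nuclear membrane. Lmna makes lamin A and lamin C by alternative splicing, while Lmnb1 and Lmnb2 make the B-type lamins. Prelamin A and the B-type lamins end in a CaaX motif, a cysteine followed by a pair of residues that are often aliphatic and by a variable last residue. Farnesyltransferase, a dimer of the Fnta and Fntb products, attaches a farnesyl lipid to that cysteine, the residues after it are cut off by Rce1 or Zmpste24, and Icmt methylates the exposed cysteine. In prelamin A only, Zmpste24 then cuts a second time upstream and removes the farnesylated end, whereas the B-type lamins keep their lipid. Lamin C has no CaaX motif and skips the whole route.

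The coding ends on which the enzymes act are shown because the route turns on them, and were read from GENCODE M21 transcripts on GRCm38. The 3 sequences are the last 48 coding bases before the stop codon, 5′ to 3′, all on minus strands. Capitals mark the 12 bases of the CaaX codons in lamin A (chr3:88482077-88482369, across an intron) and lamin B2 (chr10:80902862-80903220, across an intron). In lamin C (chr3:88483300-88483347) they mark the 18 bases that lie past the part of exon 10 it has in common with lamin A.

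lamin A coding end: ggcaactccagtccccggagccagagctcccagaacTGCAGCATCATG

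lamin C coding end: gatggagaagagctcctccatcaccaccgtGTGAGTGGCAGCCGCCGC

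lamin B2 coding end: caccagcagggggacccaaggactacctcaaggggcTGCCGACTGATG

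A cysteine codon stood 4 codons from the end in the lamin A transcript of Lmna, in Lmnb1 and in Lmnb2. It stood there in neither the lamin C transcript nor any of the 5 enzyme genes.

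Lmna, the targeted gene, was examined first. It spans bases 88480147 to 88509956 of chromosome 3 on the minus strand. Lmna had 2826 counts in the first control library and 2684 in the other, against 331 and 480 with the hairpin. As CPM, counts scaled by library size with TMM factors, this was 875.3 and 718.6 against 130.9 and 130.8. Both shLmna libraries lay far below both shControl libraries and within 1 CPM of each other. Lmna fell by 83.6% in shLmna, with a 95% interval of the change from -86.8% to -79.5% and an adjusted p of 7.93e-06 (edgeR quasi-likelihood test, Benjamini-Hochberg adjusted over 9150 tested genes). In the ranking of tested genes by mean level, Lmna moved from the 98.1 percentile in shControl to the 83.3 percentile in shLmna.

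The value for Lmna does not separate lamin A from lamin C. Per the study's methods, reads were assigned to the last 1000 bases of a RefSeq gene and the 100 bases beyond it. The annotated lamin A transcript has 12 exons and 3156 bases, and its last 1000 bases hold 71 coding bases and 0 bases of exon 8. The lamin C transcript has 10 exons and 2021 bases, and its last 1000 bases hold all 108 bases of exon 8. The 3′ ends lie 2057 bases apart, and the windows of the transcripts share 0 bases. The matrix has 1 value for the gene, and whether it sums both windows is not given in the sources used here.

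Of the 8 genes, 1 passed an adjusted p under 0.05, Lmna. Across all tested genes 15.2% passed. It also met the limits of the study, a log2 fold change over 1 in size and a mean normalized count over 5, together with 7.64% of tested genes (5.88% lower and 1.76% higher in shLmna). The other 7 genes did not pass, and their log2 changes had a median size of 0.16, beside 0.29 over all tested genes. These medians were not matched for level, and the 7 genes lay at the 60.8 to 84.9 percentile of mean level. All 8 genes had enough counts to be tested, and 2 of them, Lmna and Lmnb2, had an unadjusted p under 0.05 by edgeR, as did 30.1% of tested genes. The groups did not overlap for 5 of the 8, and 60.1% of tested genes also had groups that did not overlap.

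**Figure D1:**
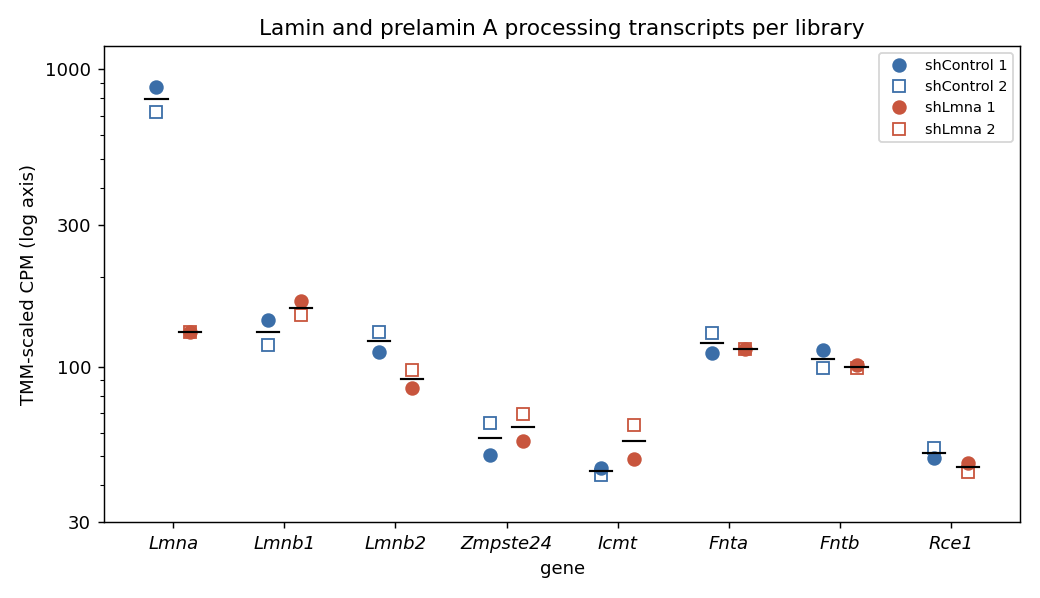
Level of each gene in TMM-scaled CPM on a log axis, with 1 point for each library (blue, shControl; red, shLmna; filled circles, replicate 1; open squares, replicate 2) and a black line at the group mean. Lmna drops from 875.3 and 718.6 CPM to 130.9 and 130.8 CPM, into the range of the B-type lamins and above the farnesyltransferase subunits.

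Lmnb1, the gene of lamin B1, and Lmnb2, the gene of lamin B2, leaned in opposite directions and neither passed the test. Lmnb1 had 465 and 442 counts in the control libraries, against 420 and 550 with the hairpin. Its level was 144.0 and 118.3 CPM in shControl and 166.1 and 149.9 CPM in shLmna. Both shLmna libraries were above both shControl libraries, by a narrow margin. Its log2 difference, shLmna minus shControl, was 0.27 with a standard error (SE) of 0.14 and a 95% interval from -0.04 to 0.58 (edgeR adjusted p of 0.230). An increase of 49.2% or a change of -2.86% would therefore still lie within the interval.

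Lmnb2 lies at bases 80901203 to 80918245 of chromosome 10. The control libraries held 363 and 489 counts of it and the shLmna libraries 215 and 357. In CPM these were 112.4 and 130.9 against 85.0 and 97.3, so both shLmna libraries were the lower ones. The log2 difference was -0.41 (SE 0.14, 95% interval -0.73 to -0.10), with an unadjusted p of 0.0150 and an adjusted p of 0.0797 by edgeR. That call depended on the setting. Lmnb2 passed in 4 of 14 alternatives, and Lmnb1 in 2 of 14. Among the settings that passed for each gene was the limma fit to the batch-corrected log2 values. That fit called 3781 of all tested genes, beside 1392 in the edgeR fit of all 4 libraries. Its model held no term for the batches removed, so its p-values may be too small. With shControl 1 left out, the edgeR adjusted p was 0.0442 for Lmnb1 and 0.0115 for Lmnb2, and the lone control library is then assumed to vary like the others. With shControl 2 left out the adjusted p was 0.648 for Lmnb1, at a log2 difference of 0.13, and 0.236 for Lmnb2, at -0.30. Without shLmna 1 the adjusted p was 0.626 and 0.409, and without shLmna 2 it was 0.340 and 0.188, in the same order of genes. Lmnb1 was higher and Lmnb2 lower in all 14 alternatives.

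Summed over both genes, the B-type lamins stood at 256.5 and 249.3 CPM in shControl and at 251.2 and 247.1 CPM in shLmna. The groups overlapped, and the mean went from 252.9 ± 5.10 (SD, n = 2) to 249.1 ± 2.85 CPM, a difference of -1.47%. The makeup of that sum leaned towards Lmnb1 in shLmna, although neither gene passed the test. Lmnb1 supplied 56.2% of B-type counts in shControl 1 (exact Clopper-Pearson 95% interval 52.7% to 59.6%) and 47.5% in shControl 2 (44.2% to 50.7%). In shLmna 1 it supplied 66.1% (62.3% to 69.8%), and in shLmna 2 it supplied 60.6% (57.4% to 63.8%). Both shLmna shares were above both shControl shares, but the intervals of shControl 1 and shLmna 2 overlapped. The intervals of the shControl libraries did not overlap each other, so the share also differed within that group. These intervals cover counting error only. They would be too narrow even for that if duplicate reads of a molecule remain in the counts, which is not stated. The Lmnb1 to Lmnb2 count ratio was 1.28 and 0.904 in shControl and 1.95 and 1.54 in shLmna, a mean log2 difference of 0.69. In an exact permutation test of 2 libraries against 2 its two-sided p was 0.333, the smallest this design allows, so no ratio below could reach 0.05.

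The share of A-type transcripts among lamin counts changed by more than the spread between libraries. Lmna made up 77.3% of the counts of the 3 lamin genes in shControl 1 (75.9% to 78.7%) and 74.2% in shControl 2 (72.8% to 75.7%). In shLmna 1 and 2 it made up 34.3% (31.3% to 37.4%) and 34.6% (32.1% to 37.2%). Lmnb1 took 12.7% and 12.2% of lamin counts in shControl and 43.5% and 39.7% in shLmna. It thus had the most counts of the 3 lamin genes in both shLmna libraries. The share of Lmnb2 was 9.93% and 13.5% in shControl and 22.3% and 25.7% in shLmna. The ratio of B-type to A-type counts was 0.293 and 0.347 in shControl and 1.92 and 1.89 in shLmna. On the log2 scale it went from -1.65 ± 0.17 to 0.93 ± 0.02 (SD), which is 5.97-fold higher in shLmna. All 3 lamins together held 1050 ± 116 CPM in shControl and 380.0 ± 2.95 CPM in shLmna, a difference of -63.8%.

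**Figure D2:**
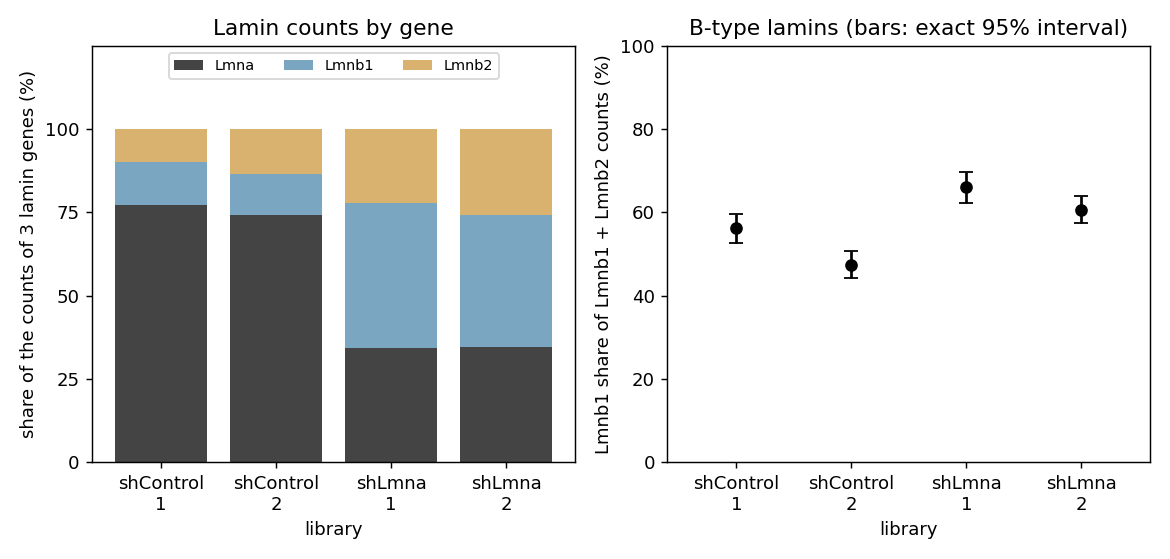
Left, share of the counts of the 3 lamin genes that each gene took, in percent, with 1 bar for each library. Right, share of Lmnb1 among B-type lamin counts in percent, with exact 95% intervals as bars. Lmna takes 77.3% and 74.2% in shControl and 34.3% and 34.6% in shLmna, and the Lmnb1 share of B-type counts is 56.2% and 47.5% against 66.1% and 60.6%.

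The farnesyltransferase subunits showed the narrowest intervals of change among the enzymes. Fnta encodes the alpha subunit, which is also part of a related geranylgeranyl transferase, and lies at bases 25998722 to 26015650 of chromosome 8. Its counts were 359 and 486 under shControl, against 291 and 422 under shLmna. Its level was 111.2 and 130.1 CPM in shControl and 115.1 and 115.0 CPM in shLmna, so the shLmna libraries lay between the control libraries. This gave a log2 difference of -0.07 (SE 0.13, 95% interval -0.37 to 0.22, edgeR adjusted p of 0.770).

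Fntb encodes the beta subunit, which holds the farnesyl binding site, and lies at bases 76765589 to 76921412 of chromosome 12. There were 368 and 370 Fntb counts under shControl against 256 and 363 under shLmna, or 114.0 and 99.1 CPM against 101.3 and 98.9 CPM. The groups overlapped again. Fntb had a log2 difference of -0.09 (SE 0.13, 95% interval -0.39 to 0.21, edgeR adjusted p of 0.699). The Fnta to Fntb count ratio was 0.976 and 1.31 in shControl and 1.14 and 1.16 in shLmna, a mean log2 difference of 0.02 with an exact permutation p of 1.

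Rce1, the endoplasmic reticulum protease that removes the residues after the prenylated cysteine, lies at bases 4622591 to 4625641 of chromosome 19. The control libraries held 159 and 199 Rce1 counts and the shLmna libraries 120 and 163. These were 49.2 and 53.3 CPM against 47.5 and 44.4 CPM, and both shLmna libraries were slightly the lower ones. The log2 difference was -0.16 (SE 0.16, 95% interval -0.51 to 0.19, edgeR adjusted p of 0.530). The window at the end of its GENCODE transcript overlaps a microRNA gene, Mir6986, on the same strand.

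Zmpste24, the only protease known to make the second cut in prelamin A, lies at bases 121059237 to 121098241 of chromosome 4. Zmpste24 counts were 163 and 242 under shControl, against 142 and 255 under shLmna. Its level was 50.5 and 64.8 CPM in shControl and 56.2 and 69.5 CPM in shLmna. The libraries of each group spread over more than the difference between the groups, and the groups overlapped. For Zmpste24 the log2 difference was 0.13 (SE 0.18, 95% interval -0.27 to 0.52, edgeR adjusted p of 0.672). Set against the B-type lamins, the Zmpste24 count ratio was 0.197 and 0.260 under shControl, against 0.224 and 0.281 in shLmna.

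Icmt, the methyltransferase of the last shared step, lies at bases 152297227 to 152307121 on the same chromosome. Counts of Icmt were 147 and 162 with the control vector, against 124 and 233 with the hairpin. In CPM these were 45.5 and 43.4 against 49.0 and 63.5, so both shLmna libraries were above the control libraries, shLmna 1 by a small margin. Icmt thus had a log2 difference of 0.35 (SE 0.17, 95% interval -0.04 to 0.74), with an edgeR adjusted p of 0.210. With 1 library left out the log2 difference ran from 0.16, without shLmna 2, to 0.52, without shLmna 1. The window at the end of its GENCODE transcript overlaps Rnf207 on the opposite strand. How the counting treated strand is not given in the sources used here.

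**Figure D3:**
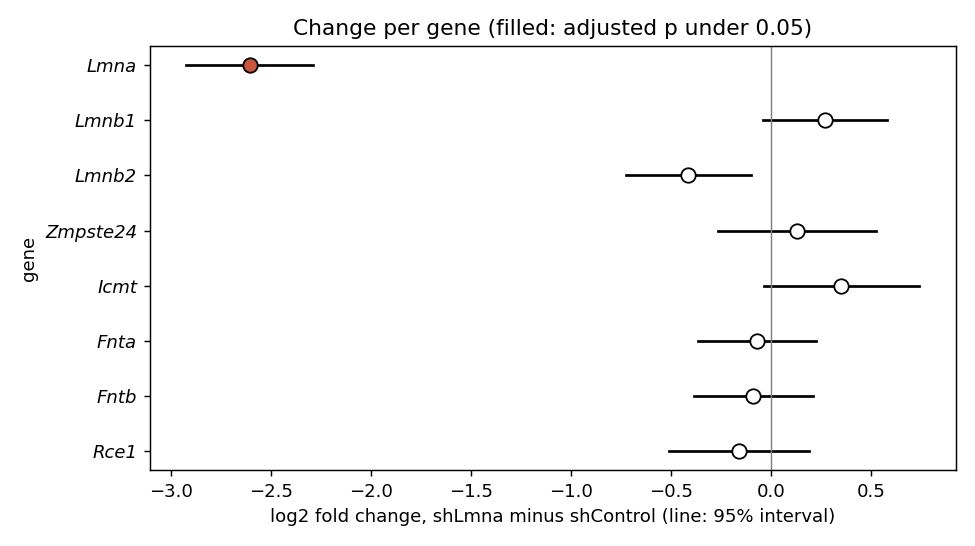
Log2 fold change of each gene in shLmna relative to shControl, with its 95% interval as a line; filled points have an edgeR adjusted p under 0.05. Lmna stands at -2.61, and the other 7 genes lie between -0.41 for Lmnb2 and 0.35 for Icmt, with 6 of the 7 intervals crossing 0.

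The 5 enzyme genes together held 370.4 and 390.6 CPM in shControl and 369.0 and 391.3 CPM in shLmna. Their summed level was thus 380.5 ± 14.3 CPM in shControl and 380.1 ± 15.7 CPM in shLmna, a difference of -0.106%. Set against the B-type lamins, the enzyme counts gave ratios of 1.44 and 1.57 under shControl, against 1.47 and 1.58 under shLmna. Relative to the lamins as a whole the ratios were 0.327 and 0.404 under shControl, against 0.966 and 1.04 under shLmna, 2.75-fold higher, with Lmna in the denominator.

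Relative to Lmna, every other gene had a higher count ratio in both shLmna libraries than in either shControl library, and each of these ratios carries the drop of Lmna itself. The Zmpste24 to Lmna ratio was 0.0577 and 0.0902 in shControl and 0.429 and 0.531 in shLmna, 6.62-fold higher. For Icmt the ratio to Lmna was 0.0520 and 0.0604 in shControl and 0.375 and 0.485 in shLmna, 7.61-fold higher. For Rce1 it was 0.0563 and 0.0741 in shControl and 0.363 and 0.340 in shLmna, 5.43-fold higher, the smallest increase among the enzymes. Fnta gave 0.127 and 0.181 against 0.879 and 0.879 per Lmna count, and Fntb gave 0.130 and 0.138 against 0.773 and 0.756. Lmnb1 went from 0.165 and 0.165 to 1.27 and 1.15 per Lmna count, while Lmnb2 went from 0.128 and 0.182 to 0.650 and 0.744. Taking all 5 enzymes, there were 0.423 and 0.544 enzyme counts for each Lmna count in shControl and 2.82 and 2.99 in shLmna. Of 14 ratios compared, 11 had groups that did not overlap, 9 of them with Lmna as the denominator. Each of the 11 had an exact permutation p of 0.333, or 0.424 after Benjamini-Hochberg adjustment over the 14.

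Counts were compared between genes without division by length, because the counting window at each transcript end has the same length. Lmna has 2 such windows, and whether 1 or both were counted is not known. Its place in the order and its ratios to other genes may thus rest on a longer window than theirs. For the other genes the number of windows was not examined, so the order below ranks counts and may not rank transcripts. In shControl the order of mean CPM was Lmna, Lmnb1, Lmnb2, Fnta, Fntb, Zmpste24, Rce1 and Icmt. Library ranges overlapped between neighbours from Lmnb1 to Fntb and between Zmpste24 and Rce1, so those neighbours were not separated. In shLmna the order was Lmnb1, Lmna, Fnta, Fntb, Lmnb2, Zmpste24, Icmt and Rce1, and the ranges overlapped only for Zmpste24 and Icmt. Lmna supplied 58.3% and 52.9% of the counts of all 8 genes in shControl and 17.4% and 17.0% in shLmna.

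Genes next to this route were examined as 3 lists. The first held 13 genes for the supply of prenyl groups, for other prenyl transferases and for the oxidation of prenylated cysteines, of which 11 were tested. By an edgeR adjusted p under 0.05, 1 gene was lower and 0 were higher in the shLmna group, beside 9.74% and 5.48% of all tested genes. An unadjusted p under 0.05 was found for 5 of the 11, beside 30.1% of all tested genes, and the median log2 difference was 0.02. The gene that was lower was Fdps, farnesyl diphosphate synthase, which makes the lipid donor of farnesyltransferase. There were 1336 and 1601 Fdps counts under shControl against 743 and 1146 under shLmna, or 421 ± 10.5 CPM against 303 ± 13.0 CPM. The log2 difference was -0.47 (SE 0.12, edgeR adjusted p of 0.0253). Without shLmna 1 or shLmna 2 the adjusted p was 0.218 or 0.148, and no gene of the list passed. The values for the mevalonate pathway genes Hmgcs1 and Mvd were -0.08 (SE 0.21) and 0.07 (SE 0.21).

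The second list held 21 genes of other proteins known as farnesylated, of which 15 were tested. A cysteine codon 4 codons from the end was found in 20 of the 21 annotated transcripts, all but that of Inpp5e. By edgeR 3 were lower in the shLmna group, 3 were higher and 9 did not pass, beside 9.74% lower and 5.48% higher among all tested genes, and the median log2 difference was -0.02. The higher genes included the small GTPase gene Nras and the phosphatase gene Ptp4a1. Nras had 15 and 46 counts under shControl against 134 and 175 under shLmna, a log2 difference of 2.53 (SE 0.33, edgeR adjusted p of 0.000885). Ptp4a1 had 3 and 8 counts against 41 and 45, a log2 difference of 3.13 (SE 0.43, edgeR adjusted p of 0.00118). Both were low in the control, at 8.48 CPM for Nras and 1.54 CPM for Ptp4a1 on average, and the size of their differences depended on the control library. Without shControl 2 they were 3.42 for Nras and 3.86 for Ptp4a1, and without shControl 1 they were 2.03 and 2.69.

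The lower genes were Rheb, a small GTPase that activates mTORC1, Rhob, a small GTPase of endosomes, and Pex19, a chaperone for peroxisomal membrane proteins. Rheb had 758 and 816 counts under shControl against 280 and 413 under shLmna, or 226.6 ± 11.5 CPM against 111.6 ± 1.26 CPM, with a log2 difference of -1.02 (SE 0.12, edgeR adjusted p of 0.000447). Rhob had 301 and 364 counts against 77 and 141, or 95.3 ± 2.99 CPM against 34.4 ± 5.63 CPM, with a log2 difference of -1.45 (SE 0.16, edgeR adjusted p of 0.000316). Pex19 had 32 and 40 counts against 10 and 16, with a log2 difference of -1.30 (SE 0.33, edgeR adjusted p of 0.0284). The call of Pex19 was lost with DESeq2, at an adjusted p of 0.327, and without shControl 2, shLmna 1 or shLmna 2 at 0.0773, 0.163 and 0.160. The other 5 called genes passed in all 14 alternatives, although in the batch-corrected log2 values the difference was 0.65 for Nras, 0.42 for Ptp4a1, -0.51 for Rheb and -0.57 for Rhob. Among genes that did not pass, the kinetochore genes Cenpe and Cenpf had log2 differences of 0.18 (SE 0.21) and 0.45 (SE 0.57), and the co-chaperone gene Dnaja2 one of -0.58 (SE 0.19, edgeR adjusted p of 0.0686).

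The third list held 7 genes of kinases, a cyclin and a protease that act on lamins at mitosis, in signalling or in apoptosis, of which 6 were tested. By edgeR 0 passed, and 0 had an unadjusted p under 0.05, beside 15.2% and 30.1% of all tested genes. Some tested members had few counts, down to 5 in a library, and the SE reached 0.53. A change in those genes could thus have been missed. DESeq2 also called 0 of the list, of 810 genes it called in all. A limma fit to the authors' batch-corrected log2 values called 2, of 3781 genes in all, and edgeR without shControl 1 called 1, of 2104. The log2 difference was -0.29 (SE 0.15) for the kinase gene Akt1, 0.38 (SE 0.22) for Casp6, the caspase that cuts lamin A, and -0.01 (SE 0.14) for Ccnb1, cyclin B1.

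**Figure D4:**
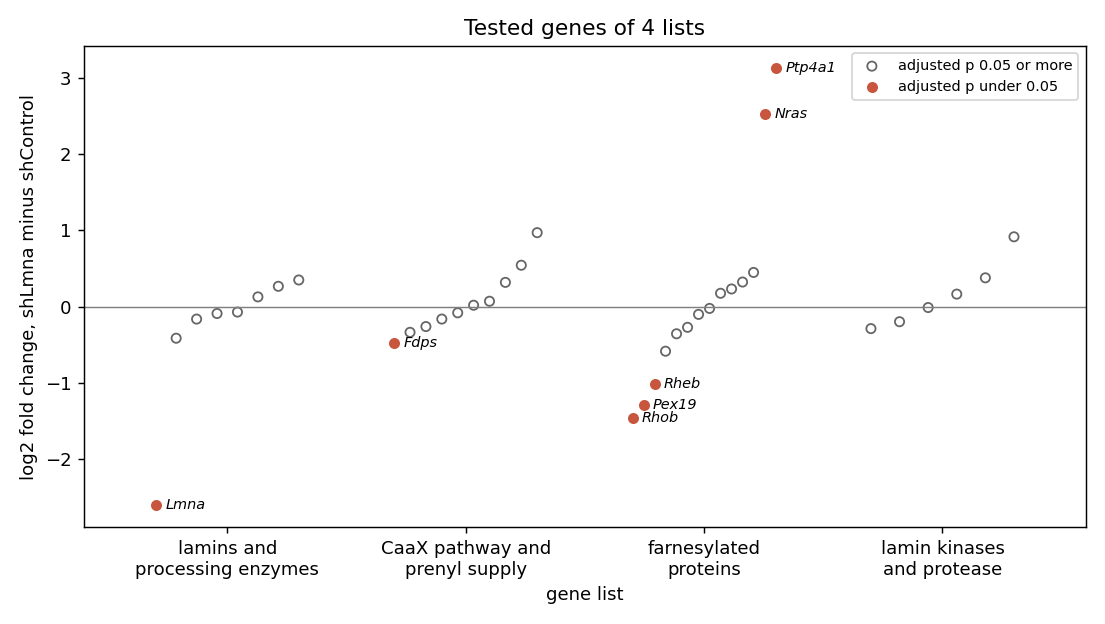
Log2 fold change in shLmna relative to shControl for tested genes of the 8 lamin and processing genes and of the 3 lists, sorted within a list; filled points have an edgeR adjusted p under 0.05 and are named. Among the lamin and processing genes Lmna alone is filled, at -2.61, and the farnesylated proteins have filled points both above 0 (Nras and Ptp4a1) and below it (Rheb, Rhob and Pex19).

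The genes whose pattern over the 4 libraries lay nearest to that of Lmna were found by the Euclidean distance of centred log2 CPM, among 5787 tested genes with a mean of at least 20 CPM. They were Tcf12 (distance 0.214), Slain2 (0.332), Setd7 (0.373), Ivns1abp (0.465) and Tmed10 (0.472), beside a median distance of 2.63 over all candidates. Their log2 differences were -2.49, -2.36, -2.54, -2.40 and -2.56, in the same order. Differences near that of Lmna follow from the choice by distance and are not a separate result. The last 1000 bases of the lamin A transcript of Lmna have a GC content of 51.4%, and those of these 5 genes have 29.9% to 45.2%.

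The calls for the lamin and processing genes were set against the properties of their libraries and windows. Library totals ran from 2494880 counts in shLmna 1 to 3808843 in shControl 2. No stretch of 31 bases in the last 1000 bases of any of the 8 genes occurred in another annotated gene (0% in each). For Lmna this check and the GC content used the lamin A transcript, and the lamin C window was not examined. Their median GC content was 52.0%, beside 46.9% over tested genes with a value, and an offset for GC left Lmna as the 1 gene that passed. Summed over 7 melanocyte markers the level was 20117 to 24602 CPM, although Tyr, the tyrosinase gene, had only 1 to 7 counts in a library. Of the 6 markers tested, the pigment cell genes Mlana and Pmel were higher in shLmna, by 0.51 and 0.41 on the log2 scale, and Sox10, a melanocyte transcription factor gene, fell by 0.89 (edgeR adjusted p of 0.00510, 0.0258 and 0.00161). Mitf, Dct and Tyrp1 did not pass, at log2 differences of -0.37, -0.02 and -0.14. Markers of other cell types summed to 0.268 to 1.55 CPM for immune cells (3 of 4 at 0 in every library), 0 to 1.07 CPM for endothelial cells (2 of 3 at 0), 0.396 to 5.89 CPM for epithelial cells (1 of 4 at 0) and 0 to 0.310 CPM for fibroblasts (2 of 3 at 0). The epithelial sum was 5.89 and 2.95 CPM in shControl, against 0.396 and 1.63 CPM in shLmna.

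**Figure D5:**
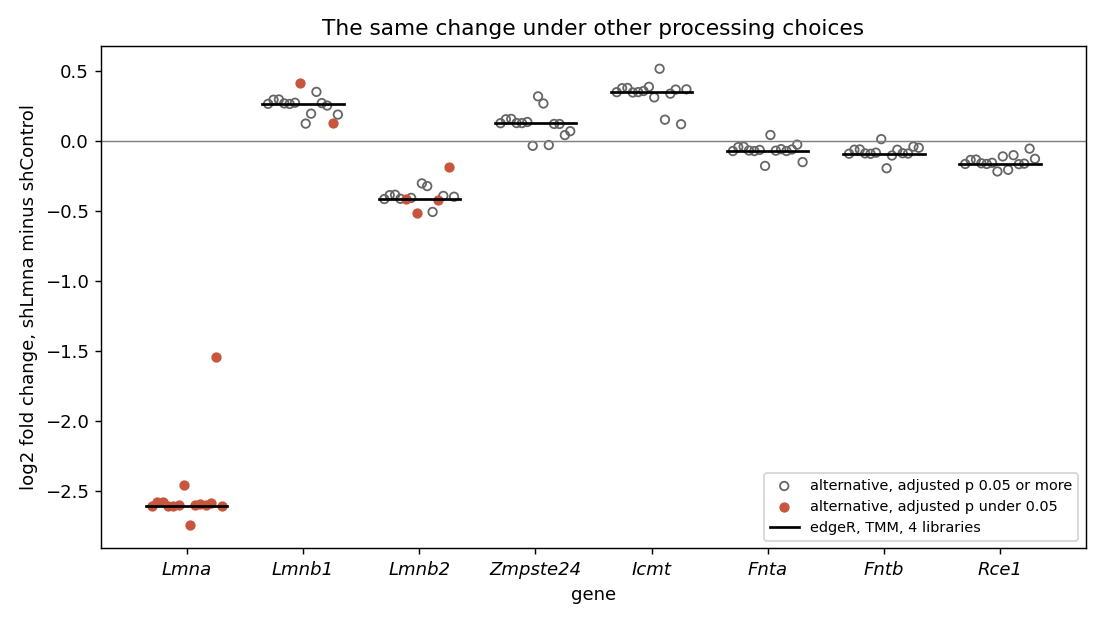
Log2 fold change of each gene in shLmna relative to shControl under 14 alternative settings (points; filled where the adjusted p is under 0.05) and in the edgeR fit of all 4 libraries (black line). Every point of Lmna is filled and lies between -2.74 and -1.54, filled points appear for Lmnb1 (2) and Lmnb2 (4), and the other genes have none.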

How the data were processed

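Transcripts of B16F10 cells were counted at their 3′ ends by MARS-seq, 2 libraries a group. Groups and replicate numbers came from the sample titles. The genes and gene lists were chosen with earlier results of these data known. Per the submitters' processing notes and the study's methods, reads were trimmed with Cutadapt, aligned to mm10 with STAR 2.4.2a and counted with HTSeq over a window from 1000 bases before to 100 bases after each RefSeq 3′ end.

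Raw counts for each gene symbol, deposited by the authors as 1 matrix, were used here for all main results. Molecular identifiers were counted by the authors once duplicates had been marked, but whether the deposited matrix holds counts from before or after that step is not stated. They also deposited a signal for each library, that is counts divided by a DESeq2 size factor. For whole counts the signal was divided by its step in each library, and 100% of the values came out whole within a tolerance of 0.05. The matrix exceeded these recovered counts 1.08 to 1.09 times, and edgeR called 1436 genes on them. A further deposited table held log2 values after batch correction with ComBat, with the batches not named. The p-value columns of the authors' own comparison were not used.

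The libraries totalled 3262632 and 3808843 counts for shControl, against 2494880 and 3657167 for shLmna. Replicates differed by more than sampling noise, with a chi-square per degree of freedom of 6.96 between shControl libraries (10085 genes) and 3.91 between shLmna libraries (9542 genes), and were kept as separate samples. shLmna was compared with shControl by the two-sided quasi-likelihood F test of edgeR 4.0.16 (R 4.3.3) with TMM factors and filterByExpr, adjusted by Benjamini-Hochberg over 9150 genes. Standard errors and 95% intervals came from that fit, with a biological coefficient of variation of 0.126. Ratios within a library were tested by exact permutation (SciPy 1.17.1), and shares carry exact Clopper-Pearson intervals. DESeq2 1.42.0, limma 3.58.1 on the log2 values, other scaling factors, other filters, a GC offset, a replicate block, the recovered counts and leaving out each library in turn were alternatives. The edgeR fit was tested on simulated counts. Genes named are the 8 lamin and processing genes, the list members with an adjusted p under 0.05, up to 3 other tested members of each list in alphabetical order, and the 5 genes nearest to Lmna in pattern. Some genes that this rule would name, and 1 sequence, are not reported here. Inpp5e was named after its sequence was seen, and the melanocyte markers, Rnf207 and Mir6986 for the checks they bear on.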

Additional observations from a re-analysis of the deposited data

How the results depend on the processing

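Over 14 alternatives Lmna was lower and passed in each, from -2.74 to -1.54 on the log2 scale, the latter in the batch-corrected values, in which the log2 ratio of B-type to A-type lamins was 1.53 in place of 2.58. Icmt and Rce1 kept their direction and passed in none. The sign changed for Zmpste24 (-0.0314 to 0.32 with 1 library left out, -0.0314 without shControl 1 and -0.0260 without shLmna 2), for Fnta (-0.18 to 0.0457, the latter without shControl 2) and for Fntb (-0.19 to 0.0163, the latter without shControl 1). Of the 8 genes 1 passed by the edgeR fit of all libraries, 2 without a filter, 3 in the batch-corrected values, and 1 to 3 with 1 library left out, with 3 without shControl 1. The added genes were Lmnb2 (adjusted p of 0.0417 without a filter and 0.00961 in the batch-corrected values) and, in the last 2 settings, Lmnb1. Over all tested genes 1392 passed, against 810 by DESeq2, 3781 in the batch-corrected values, and 503 to 2104 with 1 library left out (2104 without shControl 1, 555 without shLmna 1, 503 without shLmna 2). The cause was not tested.

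No pairing by replicate number was seen over all genes, as the deviations of same-numbered libraries correlated at 0.01 over 9150 genes. The sample titles do not say whether same-numbered libraries were prepared together. With the replicate number as a block, 2 of the 8 genes passed, and 2072 genes passed in all. The added gene was Lmnb2, at an edgeR adjusted p of 0.0218. The block leaves fewer degrees of freedom for each gene, so these p-values may lean more on the variance shared across genes, which was not tested. The edgeR adjusted p of Lmna was 5.30e-40 with the block and 2.05e-67 without a filter, against 7.93e-06 in the main fit. The cause of these gaps was not tested. At 120 to 550 counts a library for the genes other than Lmna, the SE of a log2 difference was 0.13 to 0.18.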
